A study of Homo sapiens with 12 samples.

Results

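Fatty acid synthesis, desaturation and elongation were followed through 10 genes in 2 human lung adenocarcinoma lines that had survived osimertinib. The genes were chosen by symbol in the platform annotation, and 8 of the 10 had a probe set, 1 each, among the 21448 probe sets of the array. FADS1 and ACSL3 had no named probe set in the annotation used and were not analysed here. The 8 measured genes included ACLY and ACSS2, which supply acetyl-CoA, and ACACA and FASN, which build the saturated chain. The others were ELOVL5 and ELOVL6, which lengthen fatty acid chains, and SCD and FADS2, which place double bonds in such chains.

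Cells make fatty acids from cytosolic acetyl-CoA, which acetyl-CoA carboxylase turns into malonyl-CoA and fatty acid synthase joins into palmitate. Elongases and desaturases of the endoplasmic reticulum then give stearate, oleate and, from dietary precursors, the polyunsaturated chains of membranes. Sterol regulatory element-binding proteins (SREBPs) are the transcription factors best known for driving these genes together with those of cholesterol synthesis, and in the lung the pathway serves surfactant lipids of alveolar cells.

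H1975 and PC-9 are established lines that carry EGFR mutations, and EGFR, a growth factor receptor, is the target of osimertinib. Each line gave 2 groups of 3 arrays. Tolerant H1975 and tolerant PC-9 cells were those alive on day 8 of 0.5 µM osimertinib. The H1975 and PC-9 groups with SK-216 were tolerant cells that were alive 48 h after 100 µM SK-216, an inhibitor of PAI-1, was added. All 4 groups had thus been through osimertinib, in medium with 10% fetal bovine serum, and no cells without osimertinib are among them. Whether osimertinib stayed in the medium with SK-216 is not given in the labels, and 1 label field calls the cells given SK-216 naive while titles and descriptions call them tolerant. The added 48 h and SK-216 cannot be told apart. RNA came from whole cultures, so fewer cells of a kind and less RNA per cell cannot be told apart either.

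Values are deposited log2 signals, so a difference of 1 is a doubling of signal. Array medians lay between 6.56 and 6.62. As a mark for genes that are not expressed, the 349 olfactory receptor probe sets had a 95th percentile of 5.05, and each of the 8 genes lay above it in every group. Of 10 lung epithelial and adenocarcinoma markers, 7 lay above it in every group (EPCAM, KRT7, KRT8, KRT18, KRT19, CDH1 and CLDN4). NKX2-1 did so only in tolerant H1975, SFTPB only in tolerant PC-9, and NAPSA in none. None of 6 adipocyte markers lay above that mark in any group. Hepatocyte markers did so for 1 to 3 of 6, leukocyte markers for 3 or 4 of 6 (the pan-leukocyte gene PTPRC in no group), endothelial markers for 0 to 2 of 5 and fibroblast markers for 3 of 6. The log2 of the summed signal of some marker lists did not overlap between tolerant and SK-216 arrays. In H1975 the fibroblast sum was 9.98 to 10.25 in tolerant arrays and 9.58 to 9.71 with SK-216, the hepatocyte sum 10.65 to 11.06 and 10.29 to 10.50, and the epithelial sum 16.91 to 16.99 and 16.84 to 16.87. In PC-9 the leukocyte sum was at most 11.70 in tolerant arrays and at least 11.86 with SK-216, the fibroblast sum 8.52 to 8.91 and 8.93 to 9.29, and the epithelial sum 18.30 to 18.43 and 18.44 to 18.51. The other sums overlapped. Such a sum mostly follows its brightest gene. In H1975 SERPINA1 had means of 10.75 in tolerant cells and 10.28 with SK-216, and the other hepatocyte markers at most 5.60. In PC-9 CD68 had means of 11.60 and 11.86, and the other leukocyte markers at most 5.85. Neither of these 2 genes passed limma's test (adjusted p = 0.249 and 0.312). Single markers passed limma's test over all probe sets in H1975, in both directions. CDH1 fell, at -1.55 ± 0.13 (limma adjusted p = 4.51e-08), as did COL1A1, at -0.96 ± 0.21, and KRT8, at -0.24 ± 0.06. EPCAM rose, at 0.77 ± 0.13 (limma adjusted p = 0.00044), as did KRT7, at 0.33 ± 0.08. COL1A1 lost its call without tolerant H1975 array 1 or H1975 SK-216 array 3 (adjusted p up to 0.064), KRT7 without tolerant H1975 array 2 or 3 or SK-216 array 1 or 2 (up to 0.166), and KRT8 without any 1 H1975 array but SK-216 array 3 (up to 0.121). In PC-9, 0 markers passed. The part of these markers in the results was not tested.

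After SK-216, SCD, FADS2 and ELOVL5 rose in PC-9 cells, and SCD alone of the 8 passed the test in H1975 cells. The 3 genes of PC-9 are SCD and FADS2, the desaturases among the 8, and ELOVL5, an elongase of polyunsaturated chains. Outside the 8, other measured genes of these families did not pass in PC-9. The desaturase genes SCD5 and FADS3 were at -0.04 and -0.10 on the log2 scale, and the elongase ELOVL2 at -0.01. The genes that supply acetyl-CoA and build the saturated chain did not pass in either line. Their estimates in PC-9 were not all smaller. ACSS2 was at 0.69 beside 0.71 for FADS2, and FASN at 0.48 beside 0.42 for ELOVL5, while ACLY was at 0.18 and ACACA at -0.17. A difference between the steps of the pathway was not tested. A gene passed when its adjusted p was below 0.05, from limma's moderated test with Benjamini-Hochberg adjustment over all 21448 probe sets. By this rule 3 of the 8 genes rose and 0 fell in PC-9, where 0.443% of all probe sets passed, 0.373% higher and 0.0699% lower. In H1975 1 of 8 rose and 0 fell, where 3.80% of all probe sets passed, 1.44% higher and 2.35% lower. At an unadjusted p below 0.05 there were 7 of 8 in PC-9, and 2342 of all 21448 probe sets. In H1975 there were 2 of 8, and 3045 of all. The median change of the 8 genes was 0.45 in PC-9 and 0.09 in H1975 on the log2 scale, against 0.00 and 0.01 over all probe sets.

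**Figure D1:**
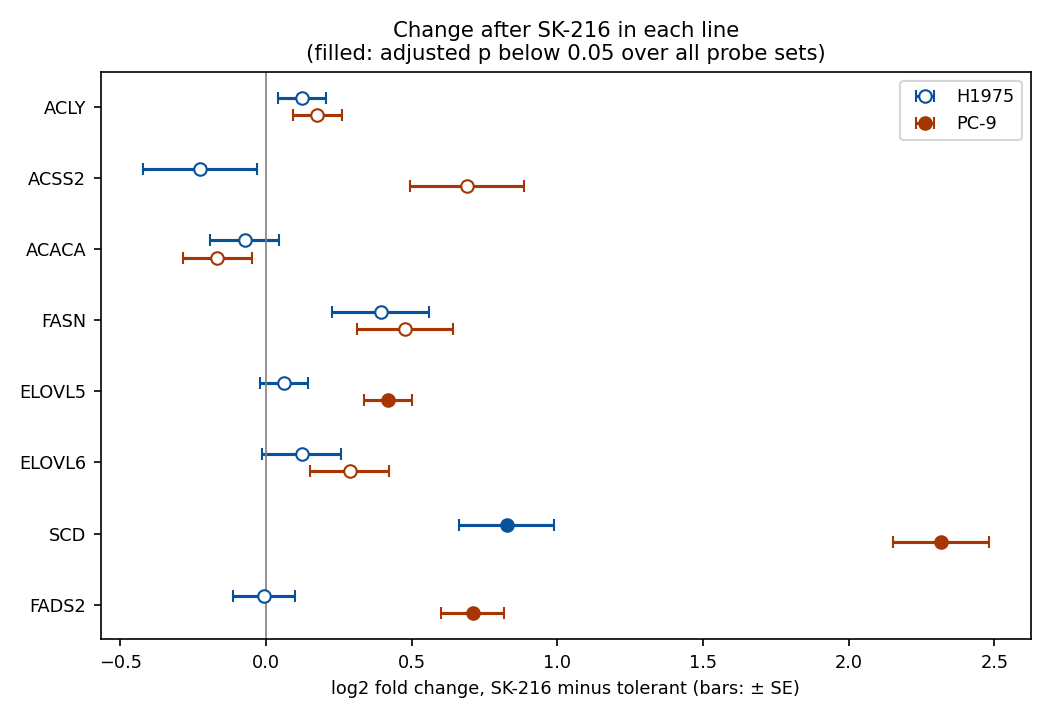
Log2 fold change of each of the 8 genes after SK-216, with the standard error of the fit as bars, in H1975 (blue) and PC-9 (brown). Filled points passed the test over all probe sets: SCD in both lines, and FADS2 and ELOVL5 in PC-9, while the other points are open.

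The promoters of SCD, FADS2 and ELOVL5, the genes that passed in PC-9, are shown with the motifs found in them. A common cause of their rises was not tested. ELOVL6 is set beside them as the gene of the 8 that differed most between the tolerant lines. The sequences are RefSeq windows of build GRCh38.p14, from 250 bases before to 50 bases after the start site, written 5′ to 3′ on the strand of the gene. Capitals mark matches, on either strand, to the CCAAT box (CCAAT), which binds NF-Y, the GC box (GGGCGG), which binds Sp1, and the E-box (CACGTG). The windows are SCD at chr10:100346983-100347282 on the plus strand, FADS2 at chr11:61816154-61816453 on the plus strand, ELOVL5 at chr6:53348901-53349200 on the minus strand and ELOVL6 at chr4:110198566-110198865 on the minus strand.
SCD: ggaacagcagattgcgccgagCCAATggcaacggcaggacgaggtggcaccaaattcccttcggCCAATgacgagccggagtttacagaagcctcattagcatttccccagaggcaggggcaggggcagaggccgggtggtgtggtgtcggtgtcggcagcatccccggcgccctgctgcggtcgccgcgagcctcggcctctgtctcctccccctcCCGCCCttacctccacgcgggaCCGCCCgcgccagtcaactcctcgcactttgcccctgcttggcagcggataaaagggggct
FADS2: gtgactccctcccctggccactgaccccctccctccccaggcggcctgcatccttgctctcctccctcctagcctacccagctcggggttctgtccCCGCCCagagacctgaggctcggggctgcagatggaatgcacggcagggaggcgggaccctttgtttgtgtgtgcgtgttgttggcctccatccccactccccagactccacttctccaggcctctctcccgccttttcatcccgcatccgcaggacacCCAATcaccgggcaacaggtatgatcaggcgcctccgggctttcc
ELOVL5: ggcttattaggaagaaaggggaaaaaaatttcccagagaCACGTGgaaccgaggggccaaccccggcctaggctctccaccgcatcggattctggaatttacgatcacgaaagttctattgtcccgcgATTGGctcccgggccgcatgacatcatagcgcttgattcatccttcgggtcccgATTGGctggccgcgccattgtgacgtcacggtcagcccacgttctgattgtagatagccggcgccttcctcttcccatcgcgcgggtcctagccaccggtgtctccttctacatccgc
ELOVL6: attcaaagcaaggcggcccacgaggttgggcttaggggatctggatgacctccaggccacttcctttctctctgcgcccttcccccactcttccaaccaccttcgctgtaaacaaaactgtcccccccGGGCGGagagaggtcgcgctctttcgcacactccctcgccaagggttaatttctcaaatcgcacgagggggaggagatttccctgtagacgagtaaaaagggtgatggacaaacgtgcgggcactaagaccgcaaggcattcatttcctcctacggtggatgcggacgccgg

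The SCD window held 2 CCAAT boxes, at positions -229 and -186 from the start site (first base of the match), and 2 GC boxes on the opposite strand, at -33 and -11. The ELOVL5 window held 2 CCAAT boxes on the opposite strand, at -122 and -68, and 1 E-box at -211. The FADS2 window shown held 1 CCAAT box just after the start and 1 GC box at -154, and a second FADS2 window in the table held no match to any motif. The ELOVL6 window held 1 GC box and no CCAAT box. In all, 7 of the 8 measured genes had 12 windows in the table, of which ACACA had 3 and ACLY, ACSS2 and FADS2 had 2 each. FASN had none. A CCAAT box was found in 8 of the 12 windows, and in 34.6% of all 35116 windows of the table. By gene, 6 of the 7 had it in a window, among them ACLY, ACACA and ACSS2, which did not pass after SK-216. A GC box was found in 9 of 12, against 45.0% of all, and an E-box in 1 of 12, against 7.26% of all. The 2 ACLY windows share most of their bases and the 2 FADS2 windows share some, so the 12 are not separate, and the same ACLY boxes enter the counts in both windows. Neighbouring GC boxes in ACACA overlap. The form of the sterol regulatory element searched for, TCACNCCAC, where N is any base, was found in none of the 12 windows and in 1.13% of all. Its absence says only that these letters are not in these windows.

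**Figure D2:**
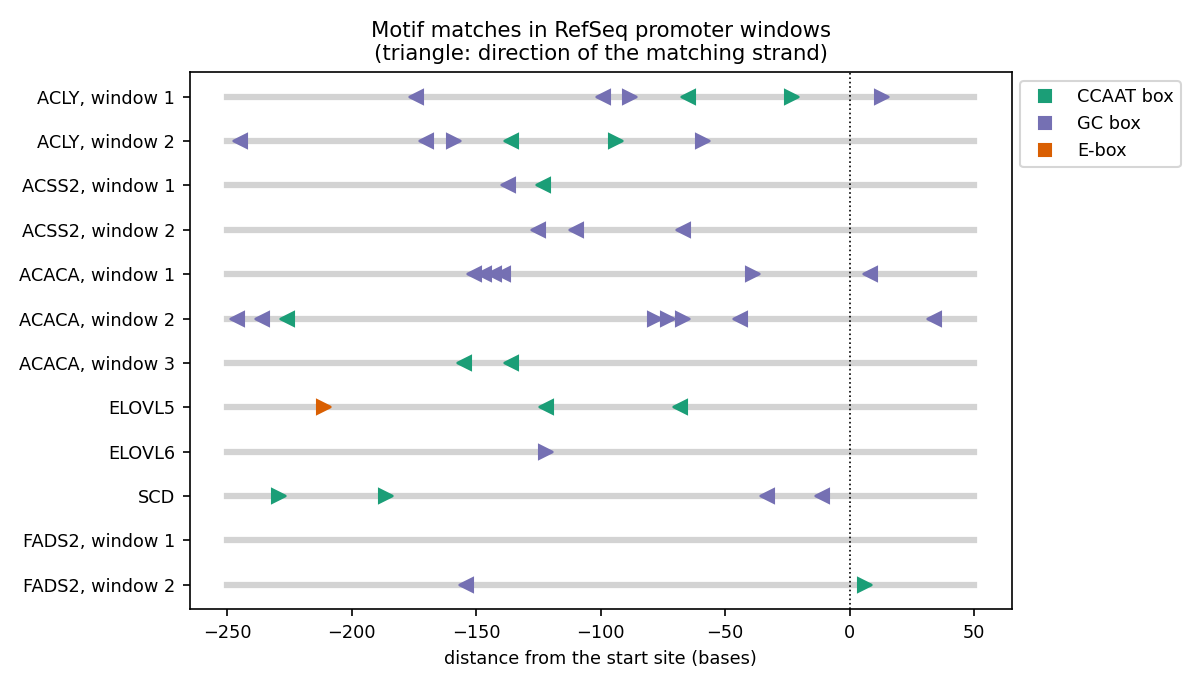
Positions of motif matches in the 12 promoter windows of the 7 measured genes that had one, as distance in bases from the start site (0, dotted line). Triangles point right for a match on the strand of the gene and left for the opposite strand. CCAAT boxes are seen in 8 windows and GC boxes in 9.

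SCD, stearoyl-CoA desaturase, puts the first double bond into saturated chains and so makes oleate from stearate. In tolerant PC-9 cells its log2 signal was 9.26, 9.66 and 8.79 on the 3 arrays, and with SK-216 it was 11.56, 11.54 and 11.56. Every SK-216 array was thus above every tolerant array, and the SK-216 arrays lay closer to each other than the tolerant arrays did. The change was 2.32 ± 0.16 (log2 fold change ± SE of the fit, n = 3 per group), a 4.98-fold rise, with limma adjusted p = 1.61e-08. By the ratio of change to standard error SCD ranked 1 among all 21448 probe sets in PC-9. In H1975 it was 12.13, 12.24 and 11.82 in tolerant cells and 12.66, 12.87 and 13.14 with SK-216. These groups did not overlap either, and the change was 0.83 ± 0.16, a 1.77-fold rise (limma adjusted p = 0.00291). That call was lost without the variance trend, with an adjusted p of 0.0552. The rise was larger in PC-9 than in H1975 by 1.49 ± 0.23 on the log2 scale, 2.81-fold (limma adjusted p = 0.000737 for the difference).

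FADS2, the delta-six desaturase that begins the synthesis of long polyunsaturated chains, rose in PC-9. Its signals were 12.73, 12.82 and 12.55 in tolerant PC-9 cells and 13.56, 13.46 and 13.21 with SK-216. The groups did not overlap, and the change was 0.71 ± 0.11, a 1.64-fold rise (limma adjusted p = 0.00118). In H1975 the signals were 12.10, 12.13 and 12.07 in tolerant cells and 11.93, 12.20 and 12.15 with SK-216. There the SK-216 arrays lay on both sides of the tolerant ones, with a change of -0.01 ± 0.11 and a 95% interval from -0.23 to 0.22. The difference between the lines was 0.72 ± 0.15 (limma adjusted p = 0.013). Its call was lost without tolerant PC-9 array 3 (adjusted p = 0.0515), without PC-9 SK-216 array 1 (0.0564) and without the variance trend (0.149), which also ended the call of FADS2 in PC-9 (0.11).

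ELOVL5, which lengthens polyunsaturated chains, rose in PC-9 by a smaller amount. It was at 13.96, 13.92 and 14.05 in tolerant PC-9 cells and at 14.49, 14.46 and 14.24 with SK-216, without overlap. The change was 0.42 ± 0.08, a 1.34-fold rise (limma adjusted p = 0.0176). Leaving out tolerant PC-9 array 2 or PC-9 SK-216 array 1 or 2 ended this call, with adjusted p of 0.0651, 0.111 and 0.127. It was also lost with quantile normalization (0.0874), with the stricter threshold of 0.01 and without the variance trend (0.259). In H1975, ELOVL5 was at 14.21, 14.21 and 14.26 in tolerant cells and at 14.22, 14.29 and 14.36 with SK-216, groups that overlap. That change was 0.06 ± 0.08 (95% interval -0.11 to 0.23), and the difference between the lines, 0.36 ± 0.12, did not pass (limma adjusted p = 0.144).

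ELOVL6, the elongase that takes palmitate to stearate, stood out by line and not by treatment. Tolerant H1975 cells had signals of 12.74, 12.69 and 12.73, and tolerant PC-9 cells 9.02, 8.72 and 8.40. All PC-9 arrays lay below all H1975 arrays, with a difference of -4.01 ± 0.14 (PC-9 minus H1975, limma adjusted p = 1.02e-17). With SK-216 the signals were 12.89, 12.68 and 12.96 in H1975 and 9.00, 8.92 and 9.08 in PC-9. In each line the SK-216 arrays overlapped the tolerant ones. The changes were 0.12 ± 0.14 (95% interval -0.16 to 0.40) in H1975 and 0.29 ± 0.14 (0.01 to 0.57) in PC-9, and neither passed (limma adjusted p = 0.778 and 0.445).

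**Figure D3:**
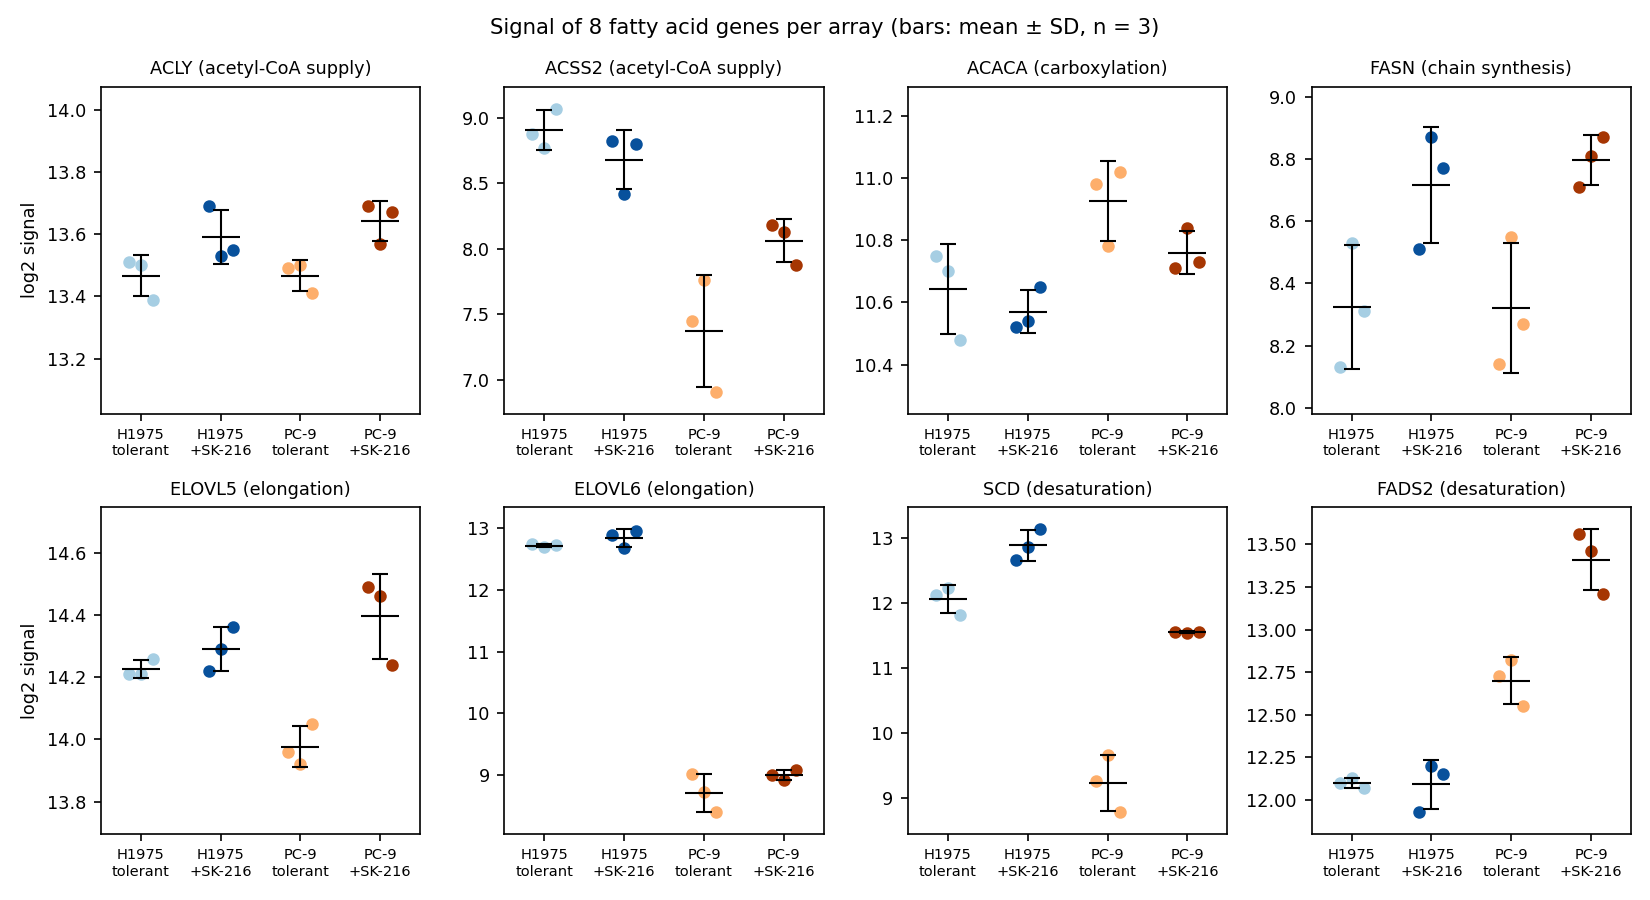
Log2 signal of the 8 genes on each of the 12 arrays, by group, with the mean and SD (n = 3) as bars; each panel has its own axis, which does not start at 0. SCD with SK-216 lies above tolerant cells in both lines, as does ACLY by less. FADS2 and ELOVL5 with SK-216 lie above tolerant cells in PC-9 and overlap them in H1975, and ELOVL6 separates the lines.

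FASN, the synthase that makes palmitate, did not pass in either line. Its signals in tolerant and SK-216 cells were 8.13, 8.53 and 8.31 against 8.51, 8.87 and 8.77 in H1975, and 8.14, 8.55 and 8.27 against 8.71, 8.81 and 8.87 in PC-9. The arrays overlapped in H1975, and in PC-9 they did not. The changes were 0.39 ± 0.17 (95% interval 0.05 to 0.74) in H1975 and 0.48 ± 0.17 (0.13 to 0.82) in PC-9, of similar size, with limma adjusted p = 0.251 and 0.261. ACACA, the carboxylase that makes malonyl-CoA, was at 10.75, 10.70 and 10.48 in tolerant H1975 cells and at 10.52, 10.54 and 10.65 with SK-216. In PC-9 it was at 10.98, 10.78 and 11.02 and, with SK-216, at 10.71, 10.84 and 10.73. Groups overlapped in both lines. Its changes were -0.07 ± 0.12 (95% interval -0.32 to 0.17) and -0.17 ± 0.12 (-0.41 to 0.08), so ACACA was the gene of the 8 with an estimate below 0 in both lines.

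ACLY, which cuts citrate into acetyl-CoA, and ACSS2, which makes acetyl-CoA from acetate, did not pass either. ACLY was at 13.51, 13.50 and 13.39 in tolerant H1975 cells and at 13.69, 13.53 and 13.55 with SK-216. In PC-9 it was at 13.49, 13.50 and 13.41 and, with SK-216, at 13.69, 13.57 and 13.67. The SK-216 arrays lay above the tolerant ones in both lines, by small amounts of 0.12 ± 0.08 in H1975 and 0.18 ± 0.08 in PC-9 (limma adjusted p = 0.568 and 0.445). ACSS2 was at 8.88, 8.77 and 9.07 in tolerant H1975 cells and at 8.82, 8.42 and 8.80 with SK-216. In PC-9 it was at 7.45, 7.76 and 6.91 and, with SK-216, at 8.18, 8.13 and 7.88. Its groups did not overlap in PC-9 and did in H1975. The change in PC-9 was 0.69 ± 0.20 (95% interval 0.29 to 1.09, limma adjusted p = 0.154), close to that of FADS2 but with a wider spread. The difference between the lines, 0.92 ± 0.28, had an adjusted p of 0.107 and passed without tolerant PC-9 array 2, at 1.11 (adjusted p = 0.0375).

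Taking array values alone, SK-216 arrays lay wholly above tolerant arrays for 6 of the 8 genes in PC-9 (SCD, FASN, ACLY, ACSS2, ELOVL5 and FADS2), where this held for 8.21% of all probe sets. In H1975 it held for 2 of the 8, SCD and ACLY, against 8.95% of all. None of the 8 lay wholly below in either line, against 6.80% of all probe sets in PC-9 and 9.56% in H1975. The difference between the lines in the SK-216 change passed for 2 of the 8, SCD and FADS2, both higher in PC-9, against 1.42% of all probe sets, 1.09% higher and 0.331% lower.

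Tolerant cells of the lines differed in some of these genes and not in others. Whether the 8 genes depart here from the shares of all probe sets was not tested. In tolerant PC-9 cells 4 of the 8 were lower than in tolerant H1975 cells and 1 was higher, in a comparison where 44.0% of all probe sets passed, 21.3% higher and 22.7% lower. PC-9 arrays lay wholly below H1975 arrays for SCD, ACSS2, ELOVL5 and ELOVL6, 4 of the 8, against 25.3% of all probe sets, and wholly above for ACACA and FADS2, 2 of the 8, against 25.0%. SCD changed by -2.83 ± 0.16 (PC-9 minus H1975, limma adjusted p = 3.27e-13) and ACSS2 changed by -1.53 ± 0.20 (limma adjusted p = 3.78e-07), beside the larger gap of ELOVL6. ELOVL5 changed by -0.25 ± 0.08 (limma adjusted p = 0.0151), a call that was lost without tolerant PC-9 array 2 (0.0594) and without the variance trend (0.109). FADS2 was higher in PC-9 by 0.60 ± 0.11 (limma adjusted p = 4.77e-05). ACACA was at 0.28 ± 0.12 (adjusted p = 0.0577) and passed without tolerant PC-9 array 2 (0.0305), with quantile normalization (0.0298) and without the dimmest probe sets (0.0431). FASN and ACLY had means of 8.32 and 13.47 in the tolerant cells of both lines. The 95% interval of that difference ran from -0.35 to 0.34 for FASN and from -0.17 to 0.17 for ACLY.

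The gaps between the lines were not all the same with SK-216. The mean of PC-9 minus that of H1975 was -2.83 for SCD in tolerant cells and -1.34 with SK-216. For ACSS2 it was -1.53 and -0.62, and for ELOVL6 -4.01 and -3.84. For FADS2, which was higher in tolerant PC-9 than in tolerant H1975 cells, it was 0.60 and 1.32. The SK-216 changes and the tolerant comparison share the tolerant arrays. Ordered by mean, SCD ran from tolerant PC-9 (9.24 ± 0.44, SD, n = 3) through PC-9 with SK-216 (11.55 ± 0.01) and tolerant H1975 (12.06 ± 0.22) to H1975 with SK-216 (12.89 ± 0.24), with no overlap between neighbours. For ELOVL6 tolerant and SK-216 cells overlapped within each line, and the lines lay apart.

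Among tolerant PC-9 arrays the 8 genes spread more for some members than for others. The SD was 0.44 for SCD, 0.43 for ACSS2 and 0.31 for ELOVL6, and 0.01, 0.16 and 0.08 with SK-216. Array 3 was the lowest of the 3 tolerant PC-9 arrays for 5 of the 8 genes (SCD, ACLY, ACSS2, ELOVL6 and FADS2) and the highest for ACACA and ELOVL5. Without it the change of SCD in PC-9 was 2.09. Other arrays had counts as high. H1975 SK-216 array 1 was the lowest of its group for 5 of the 8 genes. Tolerant PC-9 array 2 and PC-9 SK-216 array 1 were each the highest of theirs for 5. The matching share over all probe sets was not taken.

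Outside the 8 genes, 5 lists of acetyl-CoA supply, chain synthesis, elongation, desaturation and acyl-CoA handling held 44 measured genes. In PC-9, 2 of the 44 rose and 0 fell, beside 0.373% of all probe sets higher and 0.0699% lower. In H1975, 2 rose and 2 fell, beside 1.44% and 2.35%. The medians of the 44 were -0.04 in PC-9 and -0.05 in H1975. The genes that rose in PC-9 were SLC25A1, the mitochondrial citrate carrier that feeds ACLY, at 0.80 ± 0.15 (limma adjusted p = 0.0138), and HSD17B12, the ketoacyl-CoA reductase of the elongation cycle, at 0.45 ± 0.10 (adjusted p = 0.0477). The call of SLC25A1 was lost without tolerant PC-9 array 1 or 3 or SK-216 array 2 or 3 (adjusted p up to 0.127). That of HSD17B12 was lost without any 1 of 10 arrays, tolerant H1975 array 3 and PC-9 SK-216 array 3 being the exceptions (up to 0.237). In H1975 the rises were those of SLC2A1, a glucose transporter, at 0.53 ± 0.08, and ELOVL7, an elongase, at 1.01 ± 0.23. The falls there were those of ELOVL3, another elongase, at -0.87 ± 0.22 and ACSL5, an acyl-CoA synthetase, at -0.49 ± 0.13. ELOVL7 in tolerant H1975 cells (mean 4.72) and ELOVL3 with SK-216 (mean 4.48) were below the olfactory receptor mark. ELOVL7 lost its call without H1975 SK-216 array 2 or 3 (adjusted p up to 0.0848), and ELOVL3 without any 1 tolerant H1975 array or H1975 SK-216 array 2 or 3 (up to 0.118). ACSL5 lost it without any 1 of 9 arrays, all but the tolerant PC-9 arrays (up to 0.177).

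Of 14 measured regulators of the pathway, 1 passed in each line, INSIG1, where 0.443% of all probe sets passed in PC-9 and 3.80% in H1975. INSIG1 holds SREBPs in the endoplasmic reticulum and is itself one of their targets. It rose by 0.88 ± 0.19 in PC-9 and 0.69 ± 0.19 in H1975 (limma adjusted p = 0.0295 and 0.0366). In PC-9 the call was lost without any 1 of the 6 PC-9 arrays (adjusted p up to 0.147), and in H1975 without any 1 of 5 H1975 arrays, SK-216 array 1 being the exception (up to 0.185). Both calls of INSIG1 were also lost without the variance trend and with the replicate block. SREBF1, the gene of the SREBP best known for fatty acid synthesis, was at means of 7.49 and 7.46 in H1975 and 7.50 and 7.50 in PC-9, with changes of -0.03 ± 0.19 and 0.00 ± 0.19. SREBF2, known for cholesterol synthesis, was at 0.35 ± 0.15 in H1975 and 0.49 ± 0.15 in PC-9, neither past the test (limma adjusted p = 0.257 and 0.19).

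Downstream of synthesis, 2 of 21 measured genes of glycerolipid assembly and lipid droplets rose in H1975 and 0 in PC-9, beside 1.44% and 0.373% of all probe sets. They were PLIN2, a coat protein of lipid droplets, at 1.58 ± 0.21 and HILPDA, a droplet protein that inhibits lipolysis, at 0.66 ± 0.18, whose call was lost without any 1 of 8 arrays, tolerant H1975 array 1, H1975 SK-216 array 3 and tolerant PC-9 arrays 1 and 2 being the exceptions (adjusted p up to 0.268). PLIN2 had a mean of 5.07 in tolerant PC-9 cells and 4.92 with SK-216, at about the olfactory receptor mark, so its change there rests on signal near background. Of 23 genes of fatty acid oxidation, 1 rose in H1975, beside the same 1.44% of all probe sets. It was CPT1A, which brings fatty acids into mitochondria, at 1.15 ± 0.16. In PC-9, 0 of the 23 passed, and CPT1A was at 0.48 ± 0.16 (limma adjusted p = 0.227).

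Genes of cholesterol synthesis, the set most often regulated with the fatty acid genes, served as a comparison. Of 18 measured, 13 rose in PC-9 and 6 in H1975, and 0 fell, beside 0.373% and 1.44% of all probe sets higher. The medians were 0.99 and 0.25. Against these medians stand 0.45 and 0.09 for the 8 fatty acid genes, a difference that was not tested. The difference between the lines passed for 7 of the 18, all higher in PC-9, and for 2 of the 8, beside 1.09% of all probe sets. Of the 7, ACAT2 lost this call in 4 of 12 fits that left out 1 array (adjusted p up to 0.085) and MVD in 5 (up to 0.0964). Without the variance trend ACAT2, MVD, HMGCS1 and IDI1 lost it. Of the 13 rises in PC-9, that of NSDHL lost its call in 4 of the 12 fits (up to 0.214). Without the variance trend NSDHL, HSD17B7 and EBP lost theirs. The 6 named by the smallest adjusted p in PC-9 were CYP51A1, HMGCS1, MSMO1, DHCR7, FDPS and ACAT2, at 0.98 to 1.46, all below the 2.32 of SCD. The 6 that rose in H1975 were MSMO1 at 0.81, DHCR7 at 0.71, SQLE at 0.68, HMGCS1 at 0.55, ACAT2 at 0.54 and CYP51A1 at 0.46, beside 0.83 for SCD. SQLE lost its call without tolerant H1975 array 2 or H1975 SK-216 array 2 (adjusted p up to 0.0681). ACAT2 lost it without any 1 tolerant H1975 array, H1975 SK-216 array 1 or 2 or PC-9 SK-216 array 3 (up to 0.199). Without the variance trend CYP51A1, SQLE and ACAT2 lost their calls in H1975.

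**Figure D4:**
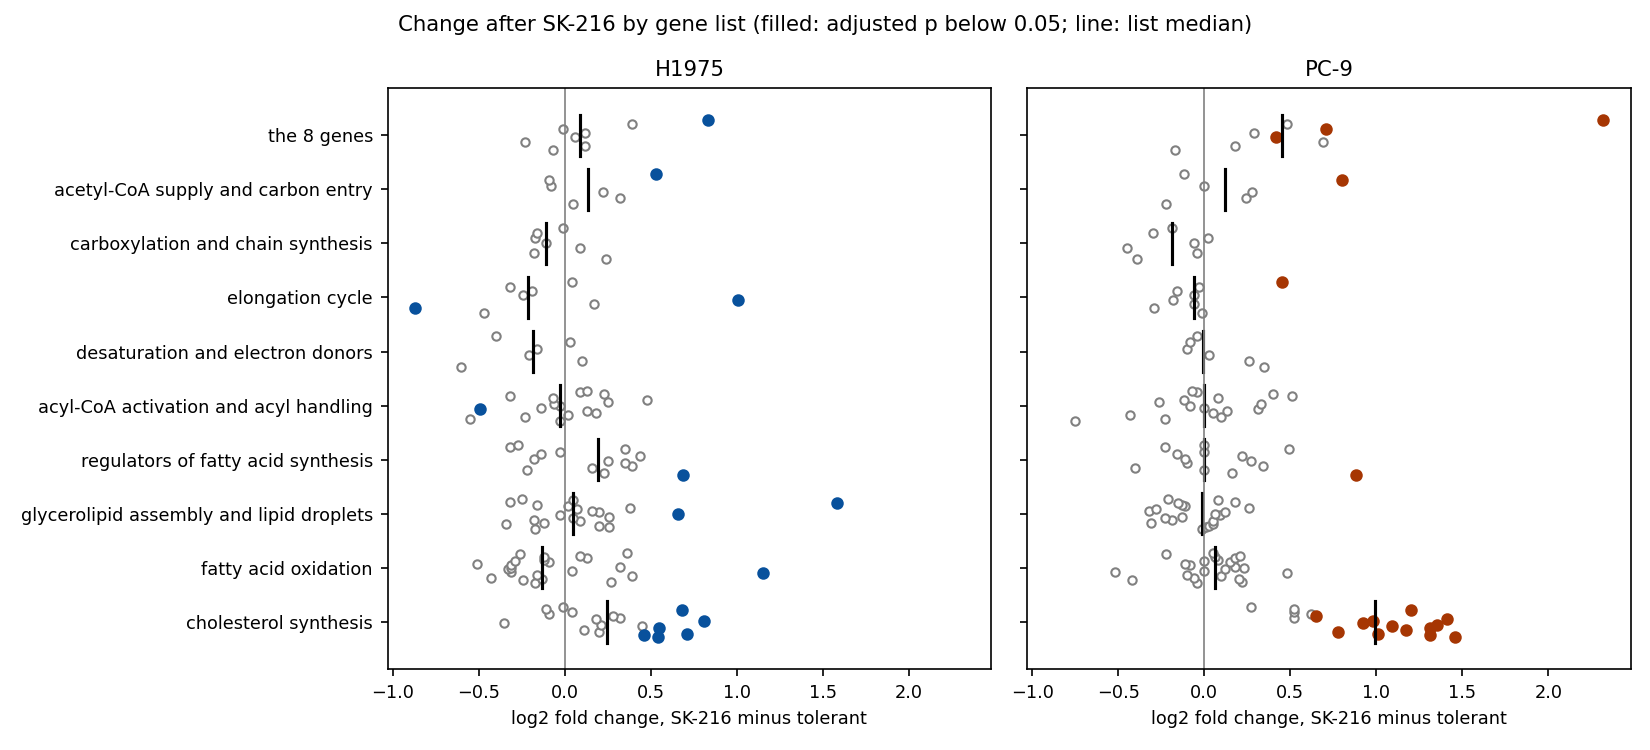
Log2 fold change after SK-216 of each measured gene, by list, in H1975 (left) and PC-9 (right), with filled points for an adjusted p below 0.05 and a black line for the list median. In PC-9 the 8 genes and the cholesterol list have medians of 0.45 and 0.99, and the other fatty acid lists lie around 0.

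The genes whose pattern over the 12 arrays was most like that of SCD, once each line's mean was subtracted, were CYP51A1 (Pearson r = 0.955), HMGCS1 (0.953) and LRR1 (0.950). CYP51A1 and HMGCS1 are enzymes of cholesterol synthesis. For FADS2 they were BUB1 (0.949), MMAB (0.931) and CDK2 (0.928), and for ELOVL5 RNF126 (0.968), HSD17B12 (0.936) and CDCA5 (0.931). HSD17B12 acts in the same elongation cycle as ELOVL5. The other neighbours named for SCD, FADS2 and ELOVL5 (LRR1, BUB1, MMAB, CDK2, RNF126 and CDCA5) are in none of the gene lists used here. For the genes that did not pass after SK-216 the nearest were CBS for FASN (0.936), UACA for ACACA (0.929), ITGAM for ACLY (0.873), PCDH19 for ACSS2 (0.934) and ERRFI1 for ELOVL6 (0.910). These values describe 12 arrays that share SK-216 and the groups, and were taken as the highest of all named probe sets. ITGAM, the gene named for ACLY, had group means of 4.37 to 5.31. It was at or below the olfactory receptor mark in 3 of the 4 groups, so its pattern rests on signal near background.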

How the data were processed

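The deposited values are log2 signals, 1 per probe set and array. The submitters' processing notes name Transcriptome Analysis Console; its version, summarisation and normalization are unstated in what was used here. The values ran from 2.19 to 18.61 and were not normalized further. Precision is limited by the 3 arrays of each group. A gene symbol was given for 17709 of 21448 probe sets by the platform annotation, 1 symbol each with none having several, and 3739 probe sets stayed unnamed here. All 17709 were found in RefSeq's GRCh38.p14 gene table.

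limma 3.58.1 (R 4.3.3) was run on the 12 arrays and every probe set, with a mean for each of the 4 groups and eBayes with a variance trend (8 residual degrees of freedom, median prior 15.0). The two-sided p-values were adjusted after Benjamini and Hochberg across the whole array, and calls were made at an adjusted p below 0.05. Replicates are not said to be separate cultures, so p-values reflect only how far arrays of a group lie apart, a spread that may be technical. The genes and lists were chosen with earlier results of these data known. Named were all 8 genes, up to 6 called genes per list other than cell markers, with the smallest adjusted p for SK-216 in each line, and, for each gene, those with the most similar pattern. Alternatives were eBayes without the trend or robust, each line alone, a replicate block, a filter that removed the dimmest 30%, quantile normalization, median centring, array weights, a threshold of 0.01, and leaving out each array. Promoter windows are RefSeq's, and figures were drawn with matplotlib 3.10.9.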

Additional observations from a re-analysis of the deposited data

Results flagged for a closer look

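For SCD the change after SK-216 differed between the lines, by 1.49 on the log2 scale (PC-9 minus H1975), by a test of the difference itself. All 3 SK-216 arrays lay above all 3 tolerant arrays in each line. For FADS2 the changes also differed, by 0.72, where all 3 SK-216 arrays of PC-9 lay above the tolerant ones and those of H1975 overlapped them. Both comparisons of a line use the tolerant arrays of that line, and the cause of the differences was not tested.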

How the results depend on the processing

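Of 656 values of the 8 genes under the alternatives, 615 kept their direction and side of the threshold, 17 lost a call, 4 gained one and 20 changed sign. Most of the 656 belong to results that had not passed in the main fit and so had no call to lose. The lost calls were mostly those of ELOVL5 in PC-9, in 7 of 21 alternatives, and of the FADS2 difference and ELOVL5 between the tolerant lines, in 4 of 20 each. The sign changes were all in values that had not passed. For the tolerant lines, FASN was at 0.06, 0.07 and 0.02 with the replicate block, quantile normalization and array weights, and ACLY at -0.04 with the replicate block and with median centring and at -0.01 with array weights. With quantile normalization FADS2 in H1975 was at 0.02, with median centring at 0.00, and the ACLY difference at -0.03. Leaving out 1 array gave -0.06 to 0.07 for FADS2 in H1975, -0.02 to 0.20 for the FASN difference, and -0.12 to 0.10 for FASN and -0.04 to 0.03 for ACLY between tolerant lines. Without the variance trend, 448 probe sets passed in H1975, 18 in PC-9 and 99 for the difference, with 0, 1 and 1 of the 8 genes. At an adjusted p below 0.01 these counts were 422, 33 and 136, and 1 of the 8 genes passed for the difference. The replicate block gave 58 calls in PC-9 and ended the calls of ELOVL5 there (adjusted p = 0.0621) and between the tolerant lines (0.365). Same-numbered arrays correlated at -0.091 to 0.029 in their deviations from the group means, so the numbers were not taken as pairs. Leaving out 1 array gave 30 to 104 calls in PC-9 (46 without tolerant array 3, 60 without SK-216 array 1, 30 without array 2 and 59 without array 3), 545 to 918 in H1975, 2 or 3 of the 8 genes in PC-9, and 1 to 3 for the difference.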

Other observations

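Other enzymes of the same families also differed between the tolerant lines, in a comparison where 44.0% of all probe sets passed; these were chosen after their values were seen. SCD5, a second stearoyl-CoA desaturase, was higher in PC-9, opposite to SCD. Its mean log2 signal was 6.12 in tolerant H1975 cells and 13.00 in tolerant PC-9 cells (n = 3 each), a difference of 6.88 ± 0.25 (SE, limma adjusted p = 4.12e-17). In PC-9, SK-216 left SCD5 at 12.97, a change of -0.04 ± 0.25 that did not pass, beside the rise of SCD. FADS3, of the FADS desaturase family, was lower in PC-9, at -0.61 ± 0.12 (limma adjusted p = 0.000119).

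Among elongases, ELOVL7 had means of 4.72 and 10.14 in tolerant H1975 and PC-9 cells, and ELOVL2, an elongase of polyunsaturated chains, 5.05 and 7.73. The H1975 values were at or below the olfactory receptor mark, so no size of the difference is given. ELOVL3 went the other way, with means of 5.35 and 4.17, the second below that mark, and ELOVL4 was at 3.12 in both. MID1IP1, a partner protein of acetyl-CoA carboxylase, was at 9.08 in tolerant H1975 cells and at 4.85, below the mark, in tolerant PC-9 cells.

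For FASN, array 1 was the lowest of the 3 in each of the 4 groups, a pattern noticed in the values.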
